A study of Danio rerio with 14 samples.

Results

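H2A.Z, a variant of histone H2A, was mapped in zebrafish embryos at 6 hours post fertilization by CUT&Tag, a method in which an antibody brings a transposase to the protein so that the DNA around it is cut, tagged and sequenced. The subject here is the control landscape, the H2A.Z signal of 3 wild-type DMSO samples among the 14 samples of the series. Another 3 DMSO samples, from embryos that overexpress H2A.Z, were not analysed here. The 3 wild-type samples were chosen by their labels: embryos of AB/Tuebingen wild-type parents, held in 0.1% DMSO, the solvent control. The signal was read at all 29854 consensus peaks of the table that sets 5-AzaC against DMSO. The 28988 peaks of the table that sets TDCIPP against DMSO served as a check, with levels from the same DMSO samples. Embryos were kept at about 50 per well, and a polyclonal H2A.Z antibody was used on about 10000 cells per library. Each library therefore pools all cell types of whole embryos, and no library made without the H2A.Z antibody was used as a measure of background. The consensus peaks were also built from treated libraries (3 samples in 100 µM 5-AzaC, 2 in 3.12 µM TDCIPP), so a listed peak need not have been a peak in DMSO. No treated value is used below, except to check the log base of the levels.

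H2A.Z takes the place of the common H2A in a minority of nucleosomes and is put in by the remodelling complexes SRCAP and p400. In many animals it flanks the start sites of genes. In early zebrafish embryos it is known to lie on DNA that lacks methylation, where it keeps promoters in a state open to later activation. The stage sampled is the onset of gastrulation, after the embryo has begun to transcribe its own genome.

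Each peak has a single DMSO value, the authors' level over the 3 samples, read as the log2 of normalised reads in the whole peak. On that reading a level of 0 is 1 normalised read and a level of 2 is 4 reads. The log base of 2 was checked from the tables, but how libraries were scaled to each other is not given in the sources used here, so a normalised read is not a count of reads sequenced. There is no value per sample, so a peak has no SD and the landscape is described with no test. Read depth per library is unknown. Differences between groups of peaks are set beside the spread over peaks in these pooled libraries, and peaks are not replicates. Since a level covers the whole peak, the main comparisons of peaks of unlike width are also given per kb of width.

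Control H2A.Z was spread over many peaks of moderate level, with a short tail of very strong ones. The median level was 3.64, or 12.5 normalised reads, and the middle 50% of peaks lay between 2.80 and 4.48 (6.96 and 22.3 reads). The lowest peak stood at -0.41 and the highest at 10.37, or 0.753 and 1323 reads. Levels under 2 were found at 2790 peaks (9.35%), and 64 peaks were under 0. The strongest 10% of peaks held 34.4% of all reads in peaks, the strongest 1% held 9.28% and the strongest 0.1% (30 peaks) held 2.92%. The weaker 50% held 19.3%.

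The peaks fell into 3 classes of sequence. Alternate-locus sequences, which give a second version of a stretch of a chromosome, carried 4628 peaks on 871 sequences. Unplaced sequences, which have no assigned chromosome, carried 471 peaks on 301 sequences, of which 208 held a single peak. The 25 assembled chromosomes carried 24755 peaks, or 82.9% of peaks and 85.0% of the reads in peaks.

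Alternate-locus peaks were weaker than those on the chromosomes. Their median level was 3.44, against 3.69 on assembled chromosomes, a difference of -0.26 that is small beside the interquartile range of 1.51 among alternate-locus peaks. They were also somewhat narrower, with a median of 736 bp against 788 bp, and per kb of width the difference was -0.18. The difference was present in each band of width. It was -0.06 for peaks under 500 bp and between -0.22 and -0.18 in the 4 wider bands. Set against the whole chromosome each one belongs to, and not the matching stretch, alternate-locus peaks had the lower median for 24 of 25 chromosomes. The gap was widest at -0.49 for chromosomes 3 and 22, and narrowest among these 24 at -0.06 for chromosomes 4 and 7. Chromosome 25 was the exception, with 3.65 on its alternate sequences and 3.64 on the chromosome itself. How reads that match both versions of a stretch were placed is not given in the sources used here.

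Unplaced sequences had the widest interquartile range of levels. Their median was 3.76, against 3.69 on assembled chromosomes, a difference of 0.07, or 0.04 per kb of width. The difference was 0.13 in the TDCIPP table and 0.18 for peaks found in both tables. The interquartile range was 2.10, against 1.69 on assembled chromosomes. Both extremes were fuller. Levels under 2 made up 11.9% of unplaced peaks against 9.26% of assembled ones, though in the TDCIPP table these shares were nearly equal, at 9.15% and 8.94%. Levels of 7 or more, at least 128 reads, made up 2.97% of unplaced peaks (14 of 471, 95% Wilson interval 1.78 to 4.93) against 0.40% of assembled ones (99 of 24755, 0.329 to 0.487). On alternate-locus sequences they made up 0.108% (5 of 4628, 0.0462 to 0.253). These intervals cover counting error over peaks only. They treat peaks as independent, and since strong peaks were in part clustered they are too narrow. The sign of the difference in median level turned with width. In peaks of 1200 bp or more the unplaced median lay 0.28 above the assembled one (5.04 against 4.76), and in peaks under 500 bp it lay 0.14 lower (2.32 against 2.46). Only 170 gaps between neighbours could be measured on unplaced sequences, with a median of 9022 bp. A gap needs 2 peaks on the same sequence and cannot be longer than that sequence, and 208 of the 301 held a single peak. The value therefore does not show closer packing than on the chromosomes.

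**Figure D1:**
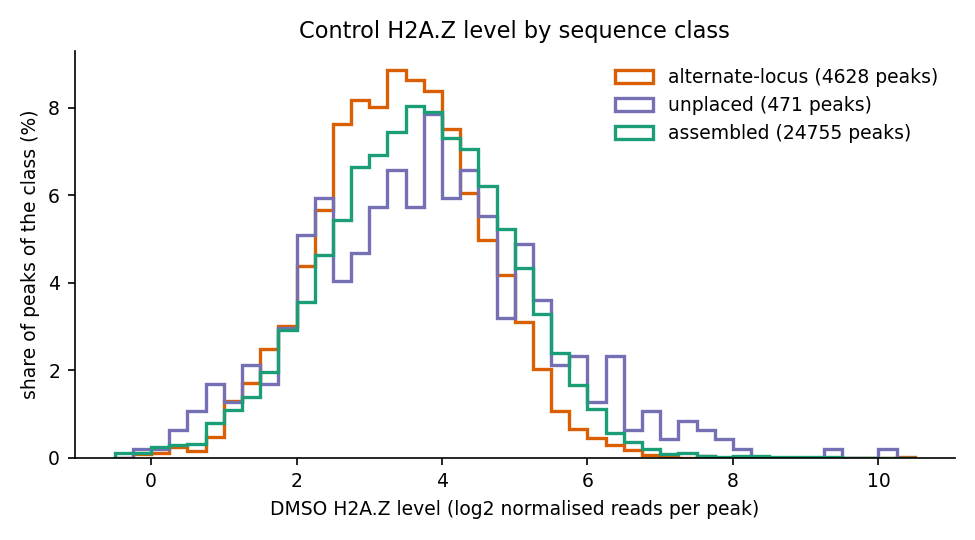
Share of peaks (%) by DMSO H2A.Z level (log2 normalised reads per peak, bins 0.25 wide) for alternate-locus, unplaced and assembled sequences. The alternate-locus curve lies to the left of the assembled one, with medians of 3.44 and 3.69, and the unplaced curve is the flattest, with 2.97% of its peaks at a level of 7 or more.

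Among assembled chromosomes the control level varied little, with chromosome 4 as the exception. Its 1145 peaks had a median level of 3.22, while the medians of the other 24 chromosomes lay between 3.56 (chromosome 24) and 3.80 (chromosome 15). The whole range of those 24 medians, 0.24, is small beside the spread within any one of them, where interquartile ranges ran from 1.54 to 1.82. The 23610 peaks of the other chromosomes had a median of 3.71, which puts chromosome 4 at -0.49 relative to them and at -0.32 per kb of width. Chromosome 4 also had the fewest peaks for its length. It carried 14.7 peaks per Mb between its first and last peak, against 15.3 (chromosome 18) to 22.1 (chromosome 22) elsewhere. Its reads in peaks came to 212 per Mb, against 279 to 454 on the others. In 17.2% of its peaks the level was under 2, against 7.14% to 11.6% on the other chromosomes. Peaks followed chromosome length on the whole, with a Spearman's rho of 0.86 between peak number and span over the 25 chromosomes. These chromosomes share the same libraries and scaling.

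The low level of chromosome 4 belonged to one part of it. Up to 30 Mb (coordinates as deposited, build GRCz11) its 562 peaks had a median level of 3.68, and from 30 Mb on its 583 peaks had a median of 2.80. Relative to the other chromosomes these are differences of -0.04 and -0.91, or 0.04 and -0.67 per kb of width. The long arm of this chromosome, which lies in the stretch beyond, is known to be rich in repeats and heterochromatin and to carry large families of zinc-finger and immune-receptor genes. In steps of 5 Mb, the median went from 3.72 between 25 and 30 Mb to 3.02 in the next step and stayed between 2.43 and 3.11 as far as 75 Mb. In the last step, from 75 Mb to the end, it was 3.30. Levels under 2 made up 26.8% of peaks from 30 Mb on, against 7.30% up to that point. Spacing changed as well, with median gaps of 50877.5 bp from 30 Mb on and 23775.5 bp up to it.

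Density and level did not drop at the same place on chromosome 4. From 20 to 25 Mb there were only 9.40 peaks per Mb, with a median gap of 62428 bp, but their median level of 4.01 was the highest of the 16 steps. From 70 to 75 Mb there were 16.6 peaks per Mb, and their median level was 2.93. The boundary of 30 Mb was set after these values were seen.

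The far part of chromosome 4 also held more peaks that were not found in both tables. Of its peaks from 30 Mb on, 68.8% overlapped a peak of the TDCIPP table, against 88.3% on the other chromosomes. Among the overlapping peaks the medians were 3.18 for chromosome 4 from 30 Mb on (401 peaks), 3.83 for chromosome 4 up to 30 Mb (496 peaks) and 3.87 for the other chromosomes (20853 peaks), or 3.61, 4.20 and 4.16 per kb. The difference between the far part and the other chromosomes was thus smaller in that set and had the same sign. Levels under 2 made up 13.5% of the overlapping peaks from 30 Mb on, 4.44% of those up to 30 Mb and 4.52% on the other chromosomes.

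**Figure D2:**
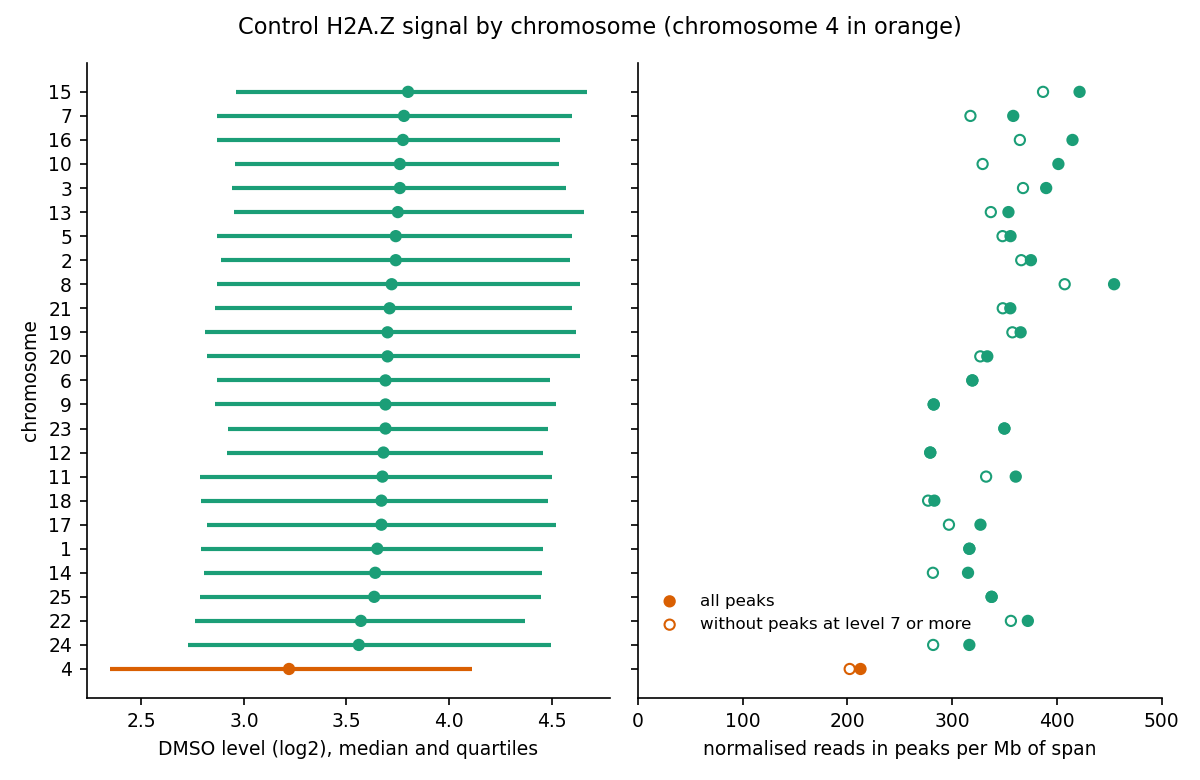
Left, median DMSO level (log2, points) and quartiles (lines) of the peaks of each chromosome, ordered by median. Right, normalised reads in peaks per Mb of span for all peaks (filled) and without peaks at a level of 7 or more (open). Chromosome 4 is lowest on both, at 3.22 and 212 reads per Mb, and chromosome 8 is highest in reads per Mb with 454.

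On some chromosomes a few strong peaks held a sizeable share of the reads in peaks. Medians without them were not computed. At no more than 1.38% of any chromosome's peaks, they could hardly move one. Chromosome 10 owed 18.0% of its reads in peaks to 12 peaks at a level of 7 or more, and its 401 reads per Mb fell to 329 without them. Chromosome 16 owed 12.1% to 10 such peaks and chromosome 7 owed 11.4% to 7. Chromosome 8 had the highest density of reads both with its 12 strong peaks, at 454 per Mb, and without them, at 407. No peak at this level lay on 6 of the chromosomes (1, 6, 9, 12, 23 and 25).

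Peaks were denser and somewhat stronger at chromosome ends. The first and last 5% of each chromosome's span together held 3241 peaks, or 13.1% of assembled peaks on 10% of the span. Here the span runs from the first to the last peak. Each end thus holds an outermost peak by construction, and any empty sequence beyond it is left out. The first 5% was above its own chromosome's mean density on 21 of 25 chromosomes, the last 5% on 23, and both on 19. Averaged over both ends, density relative to the chromosome's mean ranged from 0.978 (chromosome 24) to 1.83 (chromosome 22), with a median of 1.30. The median level was 3.84 at the ends and 3.66 inside, a difference of 0.18 that was positive on 22 of 25 chromosomes. Per kb of width the medians were 4.16 and 4.03. On the chromosomes other than 4, the sparsest stretch lay at 80 to 85% of the span, with 4.06% of peaks. The centre of the chromosomes, at 50 to 55%, had 5.60% of peaks and a median level of 3.82, against 3.89 and 3.81 at the first and last 5%.

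**Figure D3:**
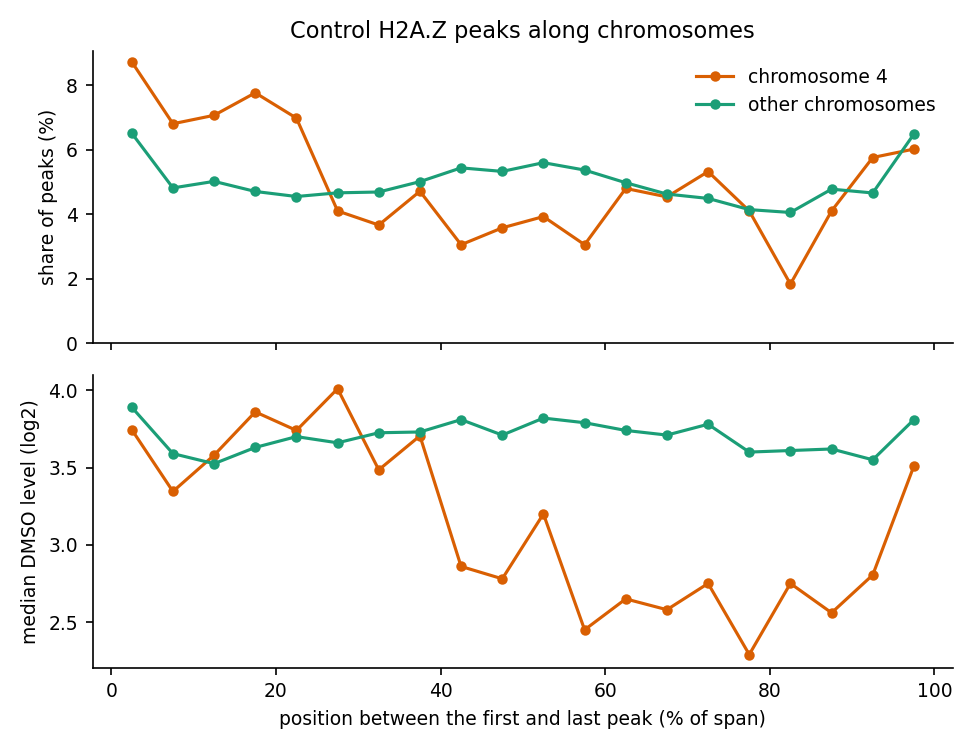
Share of peaks (%, upper panel) and median DMSO level (log2, lower panel) in 20 equal steps between the first and last peak, for chromosome 4 and for the other 24 chromosomes together. The other chromosomes rise at both ends (6.52% and 6.49% of peaks in the first and last steps), and chromosome 4 falls to medians between 2.29 and 3.20 from 40% to 95% of its span.

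Width and control level went together. Peak width had a median of 782 bp, with 5% of peaks under 383 bp and 5% over 1707 bp, and the widest reached 6665 bp. Across all peaks Spearman's rho between level and width was 0.65. It was 0.68 on alternate-locus, 0.59 on unplaced and 0.64 on assembled sequences. The median level ran from 2.20 in peaks under 400 bp, through 2.77, 3.50 and 3.99 in the steps up to 600, 800 and 1000 bp, to 4.39 from 1000 to 1500 bp and 4.86 from 1500 to 2000 bp. Per kb of width most of this relation was gone, with a rho of 0.15. In these same steps the median level per kb was 3.76, 3.78, 4.03, 4.17, 4.12 and 4.10. From 2000 to 3000 bp it was 4.35, and in the 50 peaks of 3000 bp or more it was 5.36. The widest peaks were thus also denser in H2A.Z reads, while from 600 to 2000 bp a wider peak held reads at about the same density. The 699 peaks of 2000 bp or more made up 2.34% of peaks and held 9.09% of reads in peaks. Width and level come in part from the same libraries and so are not independent measures.

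Peak widths were not smoothly distributed. Counted in 10 bp steps and smoothed over 20 bp, the number of peaks had maxima at widths of 475, 645 and 835 bp, 170 and 190 bp apart, with minima at 565 and 765 bp. Such steps are of the size of a nucleosome with its linker, but their source was not tested. The smoothed count was 399 at the first maximum, 321 at the minimum after it and 373 at the second maximum. The third was shallower, at 302 after a minimum of 286. With smoothing over 30 bp the maxima stood at 485, 655 and 825 bp. With 15 bp the later maxima each split into a pair (625 and 655 bp, 805 and 845 bp), and shallow maxima followed at 965 bp and above. In the TDCIPP table the first 3 were at 485, 655 and 815 bp, and on assembled chromosomes at 475, 635 and 835 bp. On alternate-locus sequences they were less even, at 485, 665 and 795 bp, with a further one at 865 bp. The tables share their DMSO libraries, so their likeness is no independent repeat.

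The maxima lay at other widths in weak and strong peaks. When peaks were split by control level into 3 equal groups, the weakest (9951 peaks, up to a level of 3.10) had their main maximum at 465 bp, a slight second one at 605 bp and a median width of 539 bp. The middle group (9951 peaks, levels of 3.10 to 4.18) had maxima at 505, 655 and 825 bp and a median width of 767 bp. The strongest group (9952 peaks, from a level of 4.18) had maxima at 715, 875 and 1035 bp, 160 bp apart, and a median width of 1088 bp. A level over the whole peak goes with width, so this split sorts by width in part. A split by level per kb, added after these values were seen, gave median widths of 704, 761 and 863 bp from weak to strong, much closer together. The first 3 maxima were then at 465, 615 and 795 bp in the weakest group, 485, 645 and 835 bp in the middle one and 505, 695 and 855 bp in the strongest. In each of the 3 groups the first 3 maxima were thus between 150 and 190 bp apart. The next maximum, at 1025, 1035 and 975 bp from weak to strong, followed at a step outside that range in each group.

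**Figure D4:**
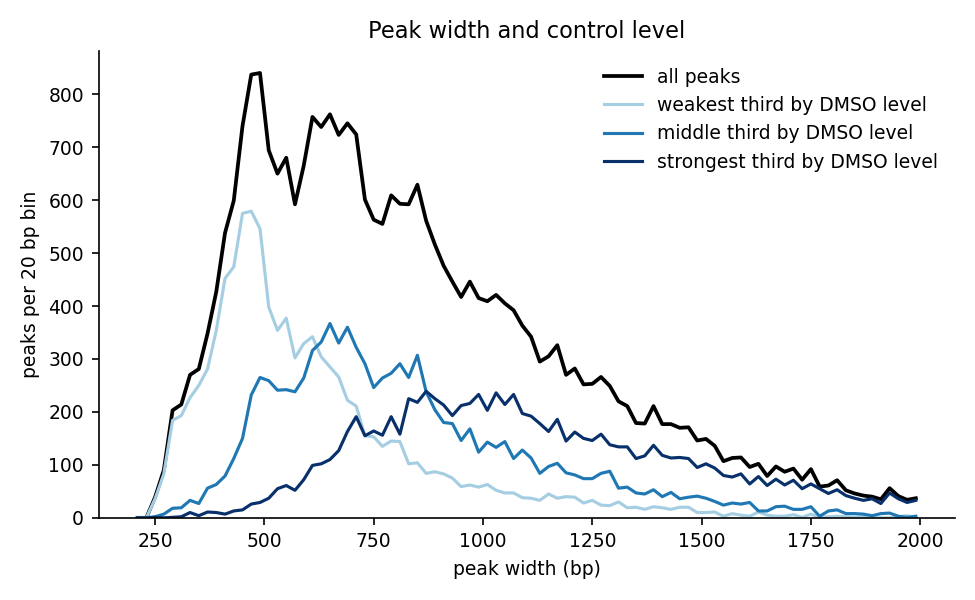
Number of peaks per 20 bp of width for all peaks and for the weakest, middle and strongest groups by DMSO level (9951, 9951 and 9952 peaks), shown up to 2000 bp. The curve for all peaks has maxima near 475, 645 and 835 bp, and the stronger groups lie further to the right.

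Consensus peaks were widely spaced, with a few dense stretches and long empty ones. They were also built from treated libraries, so a gap between them need not be a gap between peaks of DMSO alone. On assembled chromosomes the 24730 gaps between neighbouring peaks had a median of 28.6 kb and a mean of 53.4 kb, and 50% of them lay between 11.4 and 66.4 kb. Gaps of 100 kb or more numbered 3729, or 15.1%. Their lengths added up to between 43.2% (chromosome 23) and 60.6% (chromosome 18) of the span on the chromosomes other than 4, and to 63.1% on chromosome 4. The longest gap, of 1.26 Mb, lay on chromosome 14 from 17678270 to 18934318, between peaks at levels of 2.65 and 2.94. Next came a gap of 1.09 Mb on chromosome 4, which began at 45610510 and ended at 46699952. In the third longest, 0.942 Mb on chromosome 17 with ends at 47067584 and 48009916, the left edge was a peak at a level of 7.43 and the right edge one at 0.86.

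Very close neighbours were rare. Only 83 gaps were under 1 kb, against 618 between 1 and 2 kb, although both bins are equally wide. Between 1 and 1.5 kb there were 339 gaps and between 0.5 and 1 kb there were 66. Whether the peak caller or the consensus step joined peaks closer than about 1 kb is not given in the sources used here, so pairs of sites at that distance cannot be told apart from one wide peak.

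Peaks with near neighbours had more control H2A.Z than isolated ones. The median level was 3.90 in the 2302 peaks whose nearest neighbour was 1 to 3 kb away and 3.81 in the 7104 with one at 3 to 10 kb. It was 3.69 at 10 to 30 kb, 3.49 at 30 to 100 kb, and 3.25 in the 919 peaks with none within 100 kb. Interquartile ranges were 3.14 to 4.70 in the first of these groups and 2.40 to 4.10 in the last, so they overlap widely. Peaks with a neighbour at 1 to 3 kb were narrow, with a median width of 643 bp, against 826 bp at 10 to 30 kb. Per kb of width the trend from first to last was therefore steeper, at 4.54, 4.15, 4.0, 3.84 and 3.67 over these 5 groups. From 3 to 10 kb on, the trend was no steeper per kb than in level. The 166 peaks with a neighbour under 1 kb away did not follow it, with a median level of 3.56. Over all assembled peaks, Spearman's rho between level and distance to the nearest peak was only -0.12, and -0.20 per kb of width. Of the isolated peaks 8.60% lay on chromosome 4, against 4.74% of those with a neighbour at 1 to 3 kb.

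Near neighbours also had like levels. Between neighbours less than 3 kb apart rho was 0.51 (1270 pairs), and the median absolute difference in level was 0.78. At 3 to 10 kb rho was 0.25 (4239 pairs), at 10 to 30 kb 0.11, at 30 to 100 kb 0.08, and beyond 100 kb 0.07, with median absolute differences of 0.97, 1.10, 1.13 and 1.16. Without peaks at a level of 7 or more the first 2 values were 0.48 and 0.23, and without chromosome 4 they were 0.50 and 0.24. Likeness in level between neighbours was thus a matter of the nearest 10 kb, and beyond that a peak's level said little about the next one. These levels cover the whole peak and go with width, and likeness per kb of width was not computed. All pairs come from the same libraries, and these correlations describe them without a test.

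Strong control peaks were few, wide and in part clustered. The 118 peaks at a level of 7 or more were 0.395% of peaks and held 5.84% of reads in peaks. Their median width was 2060 bp, against 779.5 bp for the rest, and their median level per kb was 6.61, against 4.01 for the rest. Another peak at this level lay within 50 kb of 68 of them. Joined at that distance, the 118 made 71 loci, of which 50 held a single strong peak. Another 11 loci held 3 or more, 48 peaks in all, and with the weaker peaks between them 2.50% of the reads in peaks. All 118 overlapped a peak of the TDCIPP table, which draws on the same DMSO samples. The level of 7 was taken from an earlier description of these data.

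Most signal of any such locus was found on chromosome 10 from 16789066 to 16840734. Over 51.7 kb it held 12 peaks, 11 of them at levels between 7.21 and 9.06 and the other at 6.44. Together they held 3145 reads, or 0.579% of the reads in all peaks. The next peaks outside it were much lower, though the joining rule keeps any outside peak within 50 kb of a locus under a level of 7. The next peak on the left, 82.5 kb away, had a level of 1.47, and the next on the right, 19.0 kb away, had 2.89. Chromosome 14 carried 5 peaks from 20090272 to 20112029, 4 of them at 7.23 to 9.35. The neighbours outside stood at 2.89, 132 kb to the left, and 4.61, 43.6 kb to the right. On chromosome 16, 5 peaks from 25920964 to 25944029 had levels of 7.11 to 8.67. Their neighbours stood at 2.01 on the left, 125 kb away, and 5.76 on the right, only 2.0 kb away. On chromosome 24, 4 strong peaks from 12368724 to 12416802 stood at 7.65 to 9.14, with a weaker one among them. Their neighbours were at 1.02, 130.5 kb to the left, and 3.04, 11.5 kb to the right. Over the 10 assembled loci with 3 or more strong peaks, the 20 next peaks outside had a median level of 3.30, below the 3.64 of all peaks. Of the 20, 12 were under 4. They lay 2.0 to 147 kb from their loci, so these levels do not show how sharply signal falls at a locus edge. The highest of the 20, at 7.14, is itself a strong peak on chromosome 8, 108 kb from the locus beside it. Among these 10 loci, those on chromosomes 4 and 8 had both next peaks above 3.64. Assembled loci with 2 strong peaks were also mixed, with next peaks 0.992 to 942 kb away. Distances were not matched between the 2 kinds of locus. Both peaks just outside lay above 3.64 at such loci on chromosomes 2, 7, 13, 15 and 21. At those on chromosomes 16, 17 and 22 the left neighbour lay above 3.64 and the right below it, at 3.59, 0.86 and 3.5.

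**Figure D5:**
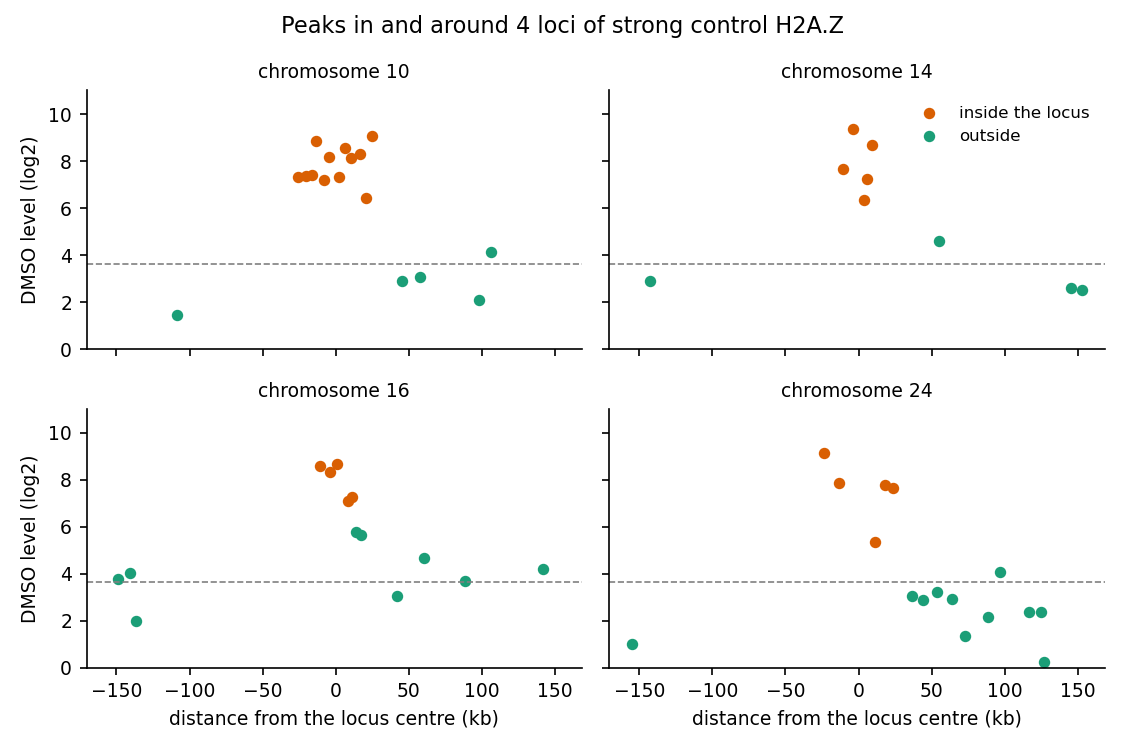
DMSO level (log2) of each peak against its distance (kb) from the centre of the locus, for the 4 assembled loci with 3 or more strong peaks that hold the most reads. Peaks inside the locus are orange and those outside are green, and the dashed line is the median of all peaks, 3.64. Inside, levels reach 9.06, 9.35, 8.67 and 9.14. The nearest peaks outside, 2.0 to 132 kb from the locus edge, have levels between 1.02 and 5.76.

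The highest single peak on a chromosome was on chromosome 7 from 53011132 to 53015216. It was 4084 bp wide and had a level of 10.37, or 1323 reads. A second peak 3255 bp further on, from 53018471 to 53020451, stood at 9.30. The peak on chromosome 11 from 15112545 to 15115432 had a level of 9.48. That on chromosome 14, between 20093738 and 20100403, was the widest of all at 6665 bp, with a level of 9.35. A much narrower one on chromosome 17 from 53383511 to 53384903, 1392 bp wide, had nearly the same level at 9.34 and the most per kb on the chromosomes, 8.86. Another on chromosome 17, from 39939448 to 39942786, stood at 9.24. The rest of the 10 highest began at 12368724 on chromosome 24 (1230 bp, level 9.14), at 16838442 and 16800447 on chromosome 10 (2292 and 1575 bp, 9.06 and 8.84) and at 34783256 on chromosome 8 (4335 bp, 8.94). Nearest neighbours of these 10 lay between 1.40 and 8.88 kb away. Among all assembled peaks, 9.30% had their nearest neighbour at 1 to 3 kb and 28.7% at 3 to 10 kb. Off the chromosomes, a peak of 2283 bp on an alternate-locus sequence of chromosome 20 stood at 10.34, and 2 on unplaced sequences stood at 10.24 and 9.33.

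High density of reads was not limited to wide peaks. On chromosome 20 a peak of 394 bp from 4608779 to 4609173 had a level of 7.46, or 8.80 per kb, and on chromosome 10 one of 441 bp from 16789066 to 16789507 had 7.31, or 8.49 per kb. Nor were the widest peaks the densest. After the one on chromosome 14, the widest began at 16262564 on chromosome 24 (5627 bp, level 7.88), at 19165618 on chromosome 13 (4529 bp, 8.24), at 25839942 on chromosome 21 (4514 bp, 7.47) and at 14765970 on chromosome 15 (4468 bp, 8.40), at 5.30 to 6.24 per kb. The last of these was also the strongest peak of chromosome 15, the chromosome with the highest median. A peak at that median of 3.80 was 463 bp wide and lay from 35223999 to 35224462. On chromosome 4, which had the lowest median, the strongest peak reached 7.73 and lay from 28565799 to 28567310, just before the stretch of low levels. One at its median of 3.22 was 394 bp wide and lay from 9233947 to 9234341.

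The TDCIPP table gave nearly the same control levels for the peaks that both tables list. Its DMSO levels come from the same DMSO samples, so this likeness is no independent repeat. Of 5295 peaks with identical coordinates in both tables, 5294 had the same DMSO level. The exception, on chromosome 19 from 14502794 to 14503190, was at 3.45 in one table and 3.11 in the other. In all, 26185 of the 29854 peaks (87.7%) overlapped a peak of the TDCIPP table. Their median absolute difference in DMSO level was 0.01, and 95% differed by no more than 0.36. The other 3669 peaks were weak and narrow in the control, with a median level of 2.20 against 3.82 for overlapping peaks and a median width of 540 bp against 812 bp. Per kb of width the medians were 3.01 and 4.12. Only 11 of them had a level of 5 or more, and 41.4% were under 2, against 4.86% of overlapping peaks. Since both tables draw on the same DMSO samples, a peak strong in DMSO would tend to enter both. The low control level of the other 3669 may in part follow from how the set was made, which was not tested. Chromosome medians moved by at most 0.08 between the tables.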

How the data were processed

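CUT&Tag libraries of H2A.Z from whole embryos were grouped by their titles. Per the submitters' processing notes, the tools were Bowtie2, Picard, MACS2, deepTools and DiffBind with build GRCz11. Their roles, settings and versions are not given in the sources used here. Per the file headers, the authors deposited for each consensus peak a log2 level over all samples of the comparison and a log2 level per group, read here as log2 of the group's mean normalised reads. A p-value and an FDR of each treated comparison were deposited as well and were not used. Taking base 2, the all-sample level equalled the log of the mean of both groups to within 0.02 at 100% of peaks, against 47.7% with natural logs and 17.8% with base 10. Read counts per sample were not used here, so depth is unknown.

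From the DMSO levels, peak width (end minus start), gaps to the next peak on the same sequence, level per kb (level minus log2 of width in kb) and medians were computed with Python 3.11.15, NumPy 2.4.6, pandas 2.3.3 and SciPy 1.17.1, and figures were drawn with Matplotlib 3.10.9. Starts may count from 0 or 1, so widths and gaps may be off by 1 bp. Linear sums use 2 to the power of the level. Width maxima are local maxima of a histogram in 10 bp steps smoothed with a Gaussian (SD 20 bp). Scripts were tested on simulated peaks. No test was made, since no sample has a value of its own. Named peaks are the 10 highest, the 5 highest per kb and the 5 widest on assembled chromosomes, and the strongest and a median peak of the chromosomes with the highest and lowest median. Members and lists were chosen with earlier results of these data known. Gene starts, gene lists, motifs and base composition were not analysed here, because the gene table at hand is of assembly GRCz12tu and not of the build of the files.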

Additional observations from a re-analysis of the deposited data

How the results depend on the processing

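No paired analysis was possible because the tables hold 1 value per group, and for the same reason no replicate was left out. The alternatives on gene starts and on CpG content were not run, since no genome or annotation of the files' build was used here. The alternative set of peaks found in both tables was chosen after seeing the data.

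The median DMSO level of 3.64 was 3.79 without peaks under a level of 2, 3.69 on assembled chromosomes alone, 4.01 per kb of width and 3.82 for peaks found in both tables. The difference of alternate-locus from assembled sequences was -0.18 per kb. The small difference of unplaced from assembled sequences, 0.07, was 0.13 in the TDCIPP table, 0.12 without peaks under a level of 2, 0.04 per kb and 0.18 for peaks found in both tables. That of chromosome 4 from the others was -0.33 without peaks under a level of 2, -0.32 per kb and -0.33 for peaks found in both tables. The rho of level and width was 0.64 in the TDCIPP table, on assembled chromosomes alone and for peaks found in both tables, 0.61 without peaks under a level of 2, and 0.15 per kb, where dividing by width removes most of it. The median gap was 30015.5 bp in the TDCIPP table, 30291.5 bp without peaks under a level of 2, 29539.5 bp from centre to centre, 28059 bp over all sequences and 32167 bp for peaks found in both tables. The strongest 1% of peaks held 9.24% of reads in peaks in the TDCIPP table, 8.90% on assembled chromosomes and 9.01% for peaks found in both tables. None of the differences and rho values given so far in this paragraph changed sign, while gaps and shares cannot be negative. The alternatives reuse the same DMSO samples, so a kept sign is no independent repeat. The unplaced median had a 95% interval over peaks of 3.54 to 3.90, which holds the assembled median of 3.69. That interval treats peaks as independent, though some share a sequence, and is no test between the classes. The small difference between chromosome 4 up to 30 Mb and the other chromosomes did change sign, from -0.04 to 0.04 per kb. For differences that moved, other than by dividing by width or leaving peaks out, the cause was not tested.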
